A study of Mus musculus with 12 samples.

Results

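The genes described here code for the contractile apparatus of smooth muscle: Acta2, Actg2, Tagln, Cnn1, Myl9, Tpm1, Tpm2, Lmod1, Myh11 and Cald1. They were taken by symbol from a table of 24346 genes, and all 10 occurred in it once. RNA was sequenced from 2 mouse fibroblast lines given SHHN, the signalling fragment of the ligand Sonic hedgehog, or vehicle. NIH-3T3 is a line from embryos of NIH/Swiss mice and MLg a line from the lung of newborn ddY mice. Each line gave 3 control and 3 treated libraries, so that 4 groups of 3 were compared. Treated cells received 1 µg/ml recombinant SHHN for 48 h and control cells the vehicle for the same time, all in medium with 0.5% FBS; before that, MLg was grown in FBS and NIH-3T3 in bovine calf serum. Each tissue and strain is represented by a single line, so line, strain, tissue, age and growth serum cannot be told apart. The labels do not say whether the 3 libraries of a group came from separate cultures, so p-values measure only the spread between these samples, which may be technical.

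In smooth muscle, actin filaments built from Acta2 and Actg2 are pulled by the myosin Myh11, whose activity is switched on by phosphorylation of its regulatory light chain. Tropomyosins, caldesmon, calponin and transgelin lie along the filament, and leiomodin seeds new ones. Many of these genes are driven by serum response factor (SRF), which binds a DNA element called the CArG box and works with the coactivators myocardin or the MRTF proteins. Fibroblasts that turn on part of this set, above all Acta2, are called myofibroblasts.

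Promoters are shown for 4 members, Acta2 and Myl9 because they hold matches to the CArG box, and Tpm1 and Lmod1 because their response to SHHN differed between the lines. The RefSeq table (GRCm38.p6) gave promoters for 7 of the 10 members, with 2 for Cald1. Each runs 5′ to 3′ from 250 bases before to 50 after the annotated start, and Actg2, Tagln and Myh11 had no entry. Acta2 is at chr19:34255324-34255623 on the minus strand, Myl9 at chr2:156775214-156775513 on the plus strand, Tpm1 at chr9:67049164-67049463 on the minus strand and Lmod1 at chr1:135324563-135324862 on the plus strand. Capitals mark CArG boxes (CC, then 6 bases that are each A or T, then GG) and forms in which 1 of those 6 bases is G or C.
Acta2: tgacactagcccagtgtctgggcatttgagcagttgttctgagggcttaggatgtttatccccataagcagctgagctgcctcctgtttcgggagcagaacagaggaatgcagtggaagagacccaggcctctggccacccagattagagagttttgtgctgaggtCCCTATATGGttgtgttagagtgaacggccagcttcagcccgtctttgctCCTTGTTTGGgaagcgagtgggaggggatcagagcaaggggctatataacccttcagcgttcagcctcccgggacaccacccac
Myl9: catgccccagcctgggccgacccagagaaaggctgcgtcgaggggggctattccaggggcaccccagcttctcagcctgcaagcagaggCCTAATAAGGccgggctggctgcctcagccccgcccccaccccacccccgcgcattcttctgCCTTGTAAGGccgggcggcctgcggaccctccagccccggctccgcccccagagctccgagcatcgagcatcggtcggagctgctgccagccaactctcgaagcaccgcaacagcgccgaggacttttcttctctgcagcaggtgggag
Tpm1: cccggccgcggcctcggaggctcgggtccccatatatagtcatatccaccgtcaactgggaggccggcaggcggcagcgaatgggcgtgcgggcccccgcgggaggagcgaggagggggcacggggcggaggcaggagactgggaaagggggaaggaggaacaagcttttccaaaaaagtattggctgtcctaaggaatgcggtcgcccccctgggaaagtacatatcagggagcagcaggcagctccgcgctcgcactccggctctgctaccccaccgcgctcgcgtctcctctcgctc
Lmod1: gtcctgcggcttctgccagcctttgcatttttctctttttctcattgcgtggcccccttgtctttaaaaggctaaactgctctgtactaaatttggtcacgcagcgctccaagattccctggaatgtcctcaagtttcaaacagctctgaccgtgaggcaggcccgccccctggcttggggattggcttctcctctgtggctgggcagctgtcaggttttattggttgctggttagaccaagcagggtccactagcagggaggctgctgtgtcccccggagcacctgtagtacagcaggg

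Myl9 was the only member whose promoter held the exact box, CCTAATAAGG, which begins 161 bases before the start, together with the form CCTTGTAAGG at 99 bases. Acta2 held 2 forms with a changed base, CCCTATATGG at 84 bases and CCTTGTTTGG at 34 bases before the start. The pattern reads the same on both strands. Of all 32851 promoters in the table, 1.63% held the exact box and 9.98% held it or a form with 1 changed base. None of the 8 member promoters held the Gli site TGGGTGGTC or its reverse complement GACCACCCA, which 0.253% of all promoters held. These are letter matches in a short window and not measured binding.

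Values are FPKM, which scale fragments to transcript length and library size, so levels of unlike genes can be set side by side. Without ligand the members spanned a wide range in both lines. In MLg control the highest means were those of Tpm1 (437 FPKM), Acta2 (315 FPKM) and Cald1 (313 FPKM), and in NIH-3T3 control those of Tpm1 (314 FPKM), Cald1 (210 FPKM) and Acta2 (104 FPKM). Cnn1, a late marker of differentiated smooth muscle, was low, at 2.27 ± 1.13 FPKM (SD, n = 3) in MLg control and 0.582 ± 0.20 FPKM in NIH-3T3 control. Myh11, the myosin heavy chain that defines mature smooth muscle, was listed at 0 in the 3 MLg control libraries. It was 0.0416, 0.121 and 0.0470 FPKM in NIH-3T3 control, 0.0155, 0.0154 and 0.0150 FPKM in NIH-3T3 SHHN and 0.0554, 0.00868 and 0.0221 FPKM in MLg SHHN. Both lines thus held RNA of the actin, tropomyosin and caldesmon genes with next to none for the smooth muscle myosin.

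The labelled cell type was checked with marker lists. The 10 fibroblast markers summed to 8966 to 17951 FPKM per library, and all 10 were tested. Among them, Thy1 was 115 to 204 FPKM in NIH-3T3 but at most 0.106 FPKM in MLg, and was tested only through NIH-3T3. The 5 epithelial markers summed to at most 0.620 FPKM and the 5 leukocyte markers to at most 1.85 FPKM. The 5 endothelial markers summed to 5.75 to 7.93 FPKM in NIH-3T3 control, 6.73 to 25.3 FPKM in NIH-3T3 SHHN, 0.101 to 0.154 FPKM in MLg control and 5.78 to 6.51 FPKM in MLg SHHN. The 7 pericyte markers summed to 15.7 to 21.7, 32.5 to 62.6, 44.7 to 49.7 and 50.1 to 57.7 FPKM in the same order of groups. Most of this was Cspg4 in NIH-3T3 (means of 16.1 FPKM in control and 44.1 FPKM with SHHN) and Notch3 in MLg (37.8 and 35.5 FPKM). Cspg4 was also higher with SHHN in MLg, with means of 2.13 FPKM in control and 13.8 FPKM with SHHN. Kcnj8, Abcc9 and Higd1b were at most 0.0324 FPKM in any library. Of the endothelial markers, Pecam1, Kdr and Emcn were at most 0.137 FPKM in any library, and the sums came from Tek and Cdh5. Cdh5 was at most 0.103 FPKM in NIH-3T3 control and 0.0369 FPKM in MLg control. With SHHN it was 2.10 to 13.9 and 4.63 to 5.41 FPKM. It entered the tested genes only through the SHHN libraries, where it is high, so it is given by level and not counted. Tek was 0.0261 to 0.108 FPKM in MLg control and 0.788 to 1.03 FPKM in MLg SHHN. The part of endothelial and pericyte markers in the results for the contractile genes was not tested. Gli1, a target and effector of hedgehog signalling, was 0.0840 to 0.906 FPKM in the 6 control libraries and 113 to 151 FPKM in the 6 treated ones. Sequencing depth is unknown, because the files give FPKM and no counts.

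**Figure D1:**
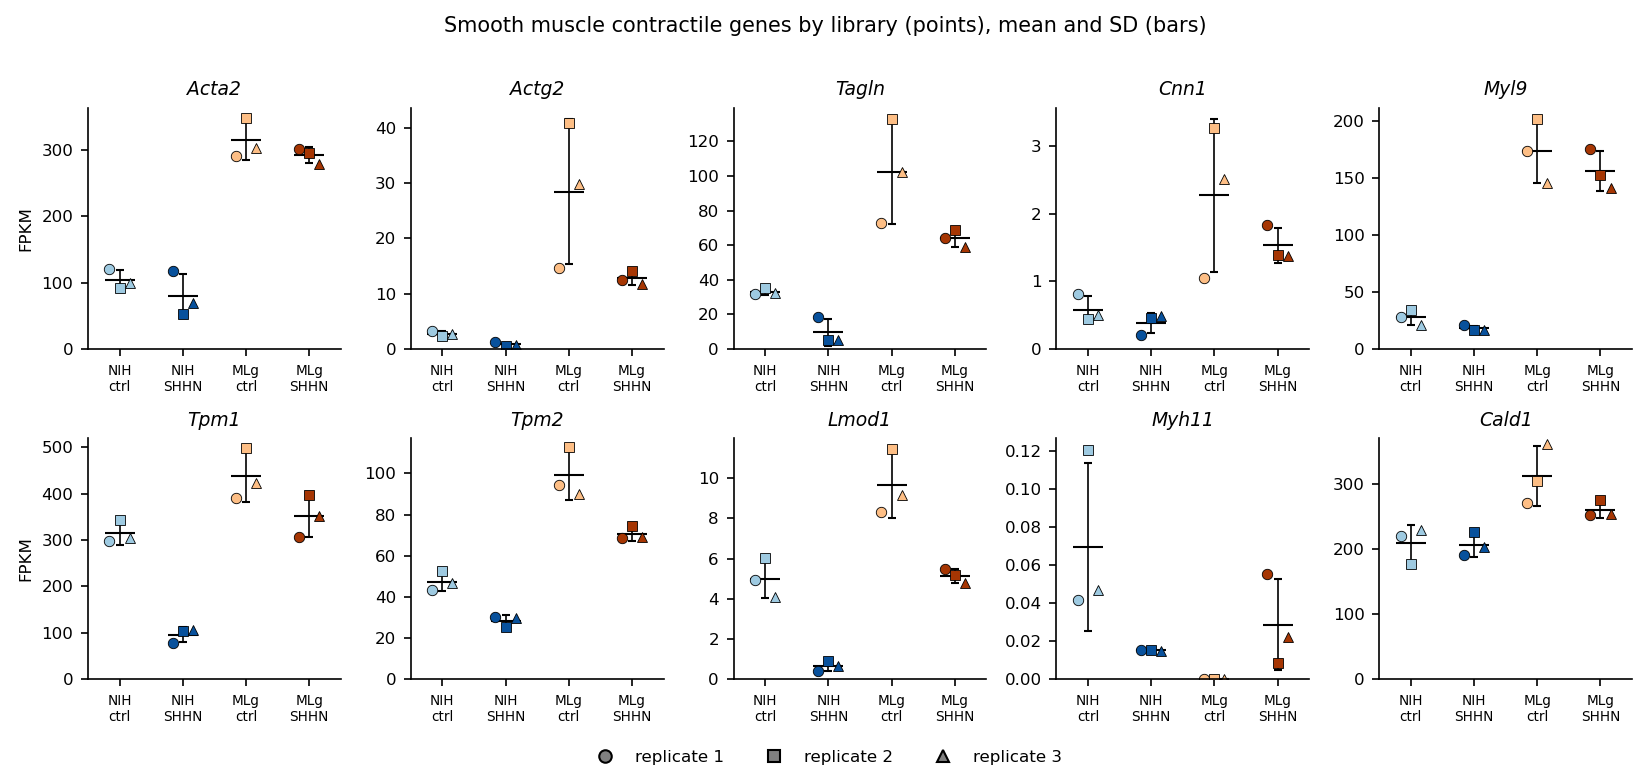
FPKM of the 10 genes (y axis, a separate linear scale per gene) in the 4 groups (x axis; NIH, NIH-3T3; ctrl, control). Each point is a library, with its shape giving the replicate number, and bars show the mean and SD of 3 libraries. Tpm1 and Lmod1 drop in NIH-3T3 with SHHN, most genes are higher in MLg, and Myh11 stays at or below 0.121 FPKM.

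The comparison of SHHN with control in NIH-3T3 asked which genes respond to the ligand in embryonic fibroblasts. Contractile genes fell: 6 of the 9 tested members were lower, 0 were higher and 3 did not pass, where 14.8% of all 12379 tested genes were lower and 16.6% higher (limma on log2(FPKM + 0.5), adjusted p under 0.05). The same 6 members had no overlap between treated and control libraries, while 18.8% of all tested genes were lower without overlap. The median log2 fold change of the 9 members was −0.72, beside −0.01 over all tested genes. All fold changes are on the log2(FPKM + 0.5) scale, which understates the change of low genes. In RNA from whole cultures, fewer cells that express a gene and less RNA per cell cannot be told apart.

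The thin filament genes showed the widest range. Lmod1 (chr1:135324807-135368065), leiomodin, which nucleates actin filaments, was 4.92, 6.01 and 4.09 FPKM in control and 0.436, 0.892 and 0.668 FPKM with SHHN. Every treated library was below every control library, and Lmod1 fell by 2.24 on the log2 scale (SE 0.18, adjusted p = 4.62e-07). Tpm1 (chr9:67022590-67049406), a tropomyosin that gates access of myosin to actin, was 298, 342 and 303 FPKM in control and 77.4, 105 and 106 FPKM with SHHN. It fell by 1.72 (SE 0.15, adjusted p = 1.17e-06), and no treated library came near a control. Tpm2 (chr4:43514711-43523765), the second muscle tropomyosin gene, was 43.3, 52.4 and 46.6 FPKM in control and 30.4, 25.5 and 29.7 FPKM with SHHN. It fell by 0.72 (SE 0.12, adjusted p = 3.53e-04), less than Tpm1. Cald1 (chr6:34598500-34775473), caldesmon, which restrains the actin-activated myosin, was 221, 178 and 230 FPKM in control and 191, 227 and 203 FPKM with SHHN. The Cald1 groups overlapped and its log2 fold change was −0.01 (95% interval −0.31 to 0.28, adjusted p = 0.958). Tpm1 and Cald1 make muscle and non-muscle isoforms by splicing, and the table gives 1 value per gene.

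Tagln and Actg2 fell as well, while Acta2 did not pass. Tagln (chr9:45929619-45936058), transgelin, an early actin-binding marker of the lineage, was 32.0, 35.1 and 32.3 FPKM in control and 18.6, 5.07 and 5.05 FPKM with SHHN. SHHN replicate 1 was thus well above the other 2 treated libraries, though below every control. Tagln fell by 2.0 (SE 0.37, adjusted p = 8.68e-04), and its log2 fold change was −2.60 without SHHN replicate 1. Actg2 (chr6:83512905-83536265), the enteric smooth muscle actin, was 3.19, 2.36 and 2.71 FPKM in control and 1.19, 0.559 and 0.721 FPKM with SHHN, a fall of 1.32 (SE 0.29, adjusted p = 0.00307). Acta2 (chr19:34241090-34255590), the vascular smooth muscle actin, was 121, 91.6 and 99.8 FPKM in control and 117, 53.3 and 69.3 FPKM with SHHN. SHHN replicate 1 lay among the controls, and the log2 fold change of −0.45 (SE 0.22, 95% interval −0.91 to 0.02) did not pass (adjusted p = 0.137). Without that library the change of Acta2 was −0.76 and passed (adjusted p = 0.00265).

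Myl9 (chr2:156775420-156781658), the regulatory light chain of smooth muscle myosin, was 28.1, 34.6 and 21.1 FPKM in control and 20.8, 16.9 and 16.8 FPKM with SHHN. The highest treated and lowest control library of Myl9 were nearly level. Its fall of 0.59 (SE 0.17, adjusted p = 0.0203) did not pass without NIH-3T3 SHHN replicate 2 (0.0725) or 3 (0.0639) or without NIH-3T3 control replicate 2 (0.0686). Cnn1 (chr9:22099216-22109630), calponin, an inhibitor of actomyosin, was 0.810, 0.439 and 0.495 FPKM in control and 0.214, 0.458 and 0.483 FPKM with SHHN, with overlap (log2 fold change −0.29, adjusted p = 0.467). Lmod1, Tpm1, Tpm2, Tagln and Actg2 kept their calls under all 21 alternatives run for this comparison.

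The comparison in MLg asked the same of lung fibroblasts. Of the 9 tested members, 3 were lower, 0 higher and 6 did not pass, where 10.0% of all tested genes were lower and 12.8% higher. Groups did not overlap for 4 members, all lower with SHHN, while 20.0% of all tested genes were lower without overlap. The median log2 fold change was −0.36, beside −0.00 over all tested genes. The count of lower members was 1 without MLg control replicate 2 and between 2 and 4 without any other single library.

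Lmod1 in MLg was 8.34, 11.4 and 9.16 FPKM in control and 5.46, 5.18 and 4.78 FPKM with SHHN. The groups were apart, Lmod1 fell by 0.84 (SE 0.18, adjusted p = 0.00345), and this call held under all 21 alternatives. Tpm2 was 94.4, 113 and 90.2 FPKM in control and 68.4, 74.3 and 68.9 FPKM with SHHN, a fall of 0.48 (SE 0.12, adjusted p = 0.0085; 0.0501 without MLg control replicate 2). Actg2 was 14.7, 40.8 and 29.9 FPKM in control and 12.5, 14.1 and 11.8 FPKM with SHHN. Control replicate 1 of Actg2 lay close to the treated libraries and the other 2 controls well above them. Its fall of 1.01 (SE 0.29, adjusted p = 0.0208) did not pass without MLg control replicate 2 (log2 fold change −0.70, 0.105) or 3 (0.0685), or without MLg SHHN replicate 1 (0.0618) or 3 (0.0744). Tagln was 72.8, 133 and 102 FPKM in control and 64.3, 68.6 and 58.8 FPKM with SHHN. The Tagln groups did not overlap, but its log2 fold change of −0.64 (SE 0.37, 95% interval −1.43 to 0.15) did not pass (adjusted p = 0.253), except with the 6 MLg libraries alone in the fit (0.0251) or without NIH-3T3 SHHN replicate 1 (0.0174).

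The remaining tested members did not pass in MLg. Acta2 was 292, 349 and 304 FPKM in control and 303, 296 and 279 FPKM with SHHN, a log2 fold change of −0.10 (95% interval −0.57 to 0.36). Tpm1 was 390, 498 and 422 FPKM in control and 305, 397 and 351 FPKM with SHHN (−0.32, 95% interval −0.64 to 0.01). Myl9 was 174, 202 and 145 FPKM in control and 176, 153 and 141 FPKM with SHHN (−0.14, interval −0.52 to 0.23). Cald1 was 271, 305 and 362 FPKM in control and 253, 276 and 255 FPKM with SHHN (−0.25, interval −0.54 to 0.04). Cnn1 was 1.05, 3.27 and 2.51 FPKM in control and 1.83, 1.39 and 1.38 FPKM with SHHN (−0.36, interval −0.95 to 0.23), and passed without MLg control replicate 1 (−0.74, adjusted p = 0.0269). In these 5 genes at least 1 control library lay within the treated range or below it. Adjusted p-values for them were 0.161 to 0.795.

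**Figure D2:**
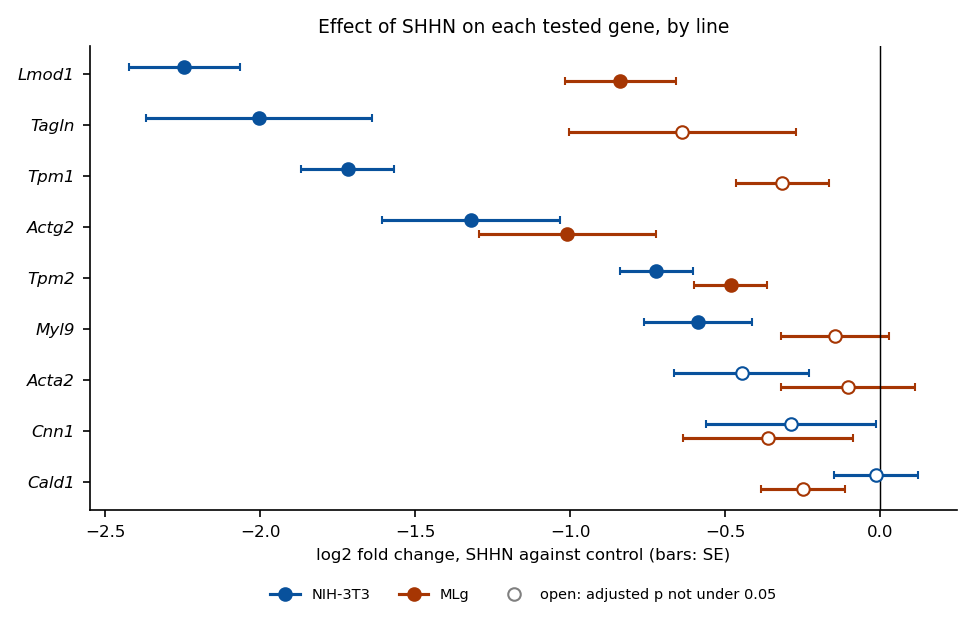
Log2 fold change of SHHN against control (x axis) for the 9 tested genes (y axis) in NIH-3T3 (blue) and MLg (orange), with SE from the fit. Filled points passed an adjusted p of 0.05, and the SE bars of Lmod1 and Tpm1 lie furthest apart between the lines.

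Single libraries of the MLg control group differed in muscle genes. Replicate 2 was the highest of the 3 controls in 8 of the 9 members above 0, and replicate 1 the lowest in 7 of 9. Replicate 1 was also the highest in 14 of 14 striated muscle markers, whose summed level was 50.5 FPKM there, 17.9 FPKM in replicate 2 and 15.1 FPKM in replicate 3. The sum was 11.5 to 13.5 FPKM in MLg SHHN and 9.65 to 13.8 FPKM in the 6 NIH-3T3 libraries. In that replicate 1 library the muscle actins Acta1 and Actc1 were 5.29 and 6.19 FPKM, and the regulator Myog 1.86 FPKM. Both other controls were at most 0.680 FPKM for these actins and listed at 0 for Myog, and Myod1 was at most 0.0617 FPKM in any library. In MLg, 4 of the 9 tested striated markers were lower with SHHN and 0 higher (all tested genes: 10.0% and 12.8%). Without control replicate 1 or without control replicate 2, 2 were lower. Among the 4, Myl1 and Tnnt1 passed the filter (0.5 FPKM in 3 libraries) only through MLg control, where they are high. Myl1 was 0.671 to 2.87 FPKM there and at most 0.247 FPKM in MLg SHHN. The calls of Myl1 and Tnnt1 thus lend no support to a fall. The library highest in striated markers was thus the lowest in most smooth muscle members, and the part of these markers in the MLg results was not tested. Without that library, Actg2 fell by 1.41 and 4 members were lower.

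**Figure D3:**
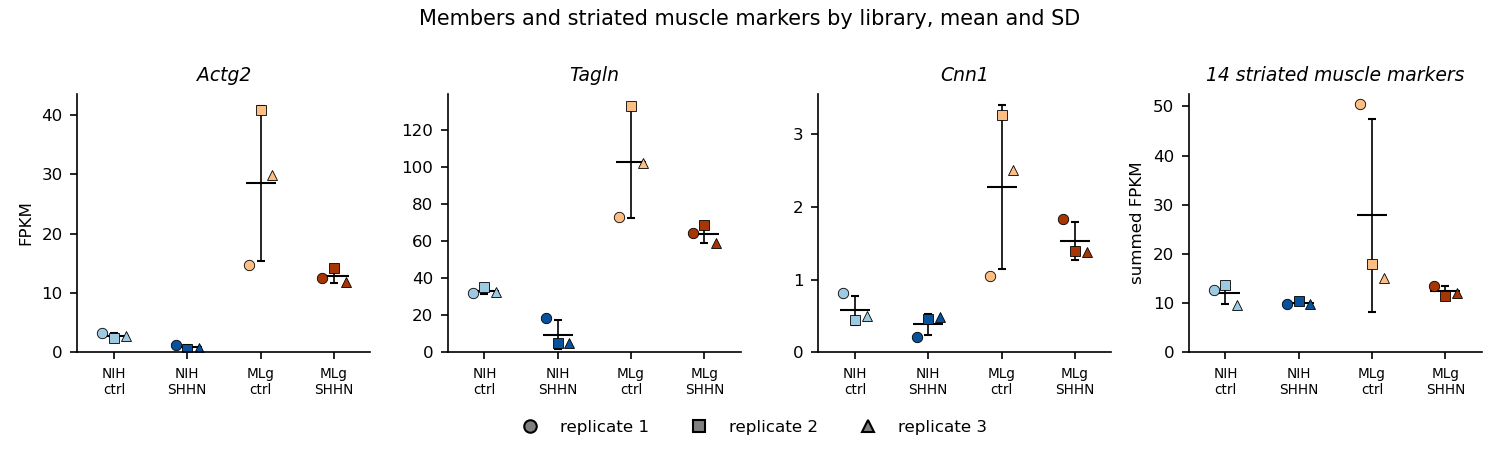
FPKM of Actg2, Tagln and Cnn1, and the summed FPKM of 14 striated muscle markers (y axes, linear), in each library of the 4 groups (x axis), with mean and SD. MLg control replicate 1 (circle) is lowest of its group for the 3 genes and reaches 50.5 FPKM for the striated markers.

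The difference between the lines in response to SHHN was tested as an interaction. Lmod1 and Tpm1 passed, so 2 of 9 tested members fell more in NIH-3T3 than in MLg and 0 fell less, where 5.95% of all tested genes had a lower and 7.48% a higher effect in NIH-3T3. The difference was −1.41 for Lmod1 (SE 0.25, adjusted p = 0.00242) and −1.40 for Tpm1 (SE 0.21, adjusted p = 7.41e-04). Both calls held under all 20 alternatives, with differences of −1.88 to −1.06 for Lmod1 and −1.50 to −1.25 for Tpm1. Tagln had a difference of nearly the same size (−1.37) with a larger error (SE 0.52), which did not pass (adjusted p = 0.102). Without NIH-3T3 SHHN replicate 1 the Tagln difference was −1.96 and passed (adjusted p = 4.76e-04). The other 6 did not pass, with intervals of −1.0 to 0.32 for Acta2, −1.18 to 0.56 for Actg2, −0.97 to 0.09 for Myl9, −0.60 to 0.12 for Tpm2, −0.18 to 0.65 for Cald1 and −0.76 to 0.91 for Cnn1.

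The ratio of the 2 smooth muscle actins changed in both lines. Acta2 was 36.8 to 38.8 times Actg2 in the 3 NIH-3T3 control libraries and 95.4 to 98.7 times in the 3 NIH-3T3 SHHN libraries. In MLg the ratio was 19.8, 8.55 and 10.2 in control replicates 1, 2 and 3 and 21.0 to 24.1 with SHHN. The ratio was higher with SHHN in every treated library of either line. In NIH-3T3 SHHN it varied little although Acta2 itself ranged from 53.3 to 117 FPKM. Of the 1284 stretches of 50 bases in the longest Actg2 transcript of GENCODE M21, 0 occurred in a transcript of another gene, as did 0.353% of those of Acta2 and 0.400% of those of Myh11. Reads placed with mismatches were not tested.

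The lines were also compared without ligand, which asks how embryonic and lung fibroblasts differ at rest. Cnn1 reached 0.5 FPKM in only 1 of 6 NIH-3T3 libraries and passed the filter through MLg, where it is high, so it is left out of the counts. Of the 8 other tested members, 8 were lower in NIH-3T3 control than in MLg control, where 25.7% of all tested genes were lower and 24.4% higher. Groups did not overlap for any of the 8, and 27.0% of all tested genes were lower without overlap. The median of the 8 was −1.31, beside −0.00 over all genes. The widest gaps were those of Actg2 (−3.05, SE 0.29, adjusted p = 9.76e-07) and Myl9 (−2.63, SE 0.17, adjusted p = 2.66e-08). Acta2 (−1.60), Tagln (−1.57), Tpm2 (−1.05), Lmod1 (−0.88) and Cald1 (−0.57) followed. Tpm1 had the smallest gap (−0.47, SE 0.15, adjusted p = 0.0187), which did not pass without NIH-3T3 control replicate 1 (0.051) or 3 (0.0549) or MLg control replicate 2 (0.0854). Cnn1 was also lower, by 1.28.

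Under SHHN, 7 of the 8 members were lower in NIH-3T3 than in MLg and 0 higher, where 24.8% of all tested genes were lower and 22.1% higher. The libraries of the lines did not overlap for any of the 8, and 32.7% of all tested genes were lower without overlap. The median of the 8 was −2.12, beside −0.04 over all genes. This comparison and the one without ligand use other libraries but share the lines. Tpm1 had a log2 difference of −1.87 under SHHN, Lmod1 of −2.29 and Tagln of −2.94. Myl9 (−3.07) and Actg2 (−3.36) stayed the most unequal. Cald1 did not pass (−0.34, adjusted p = 0.0541), and it passed in 6 of the 21 alternatives. By mean level, MLg control was the highest and NIH-3T3 SHHN the lowest group for each of these 8 members. Neighbouring groups in this order were apart throughout for Actg2, Tagln and Tpm2. MLg control and MLg SHHN overlapped for Acta2, Cnn1, Myl9, Tpm1 and Cald1.

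**Figure D4:**
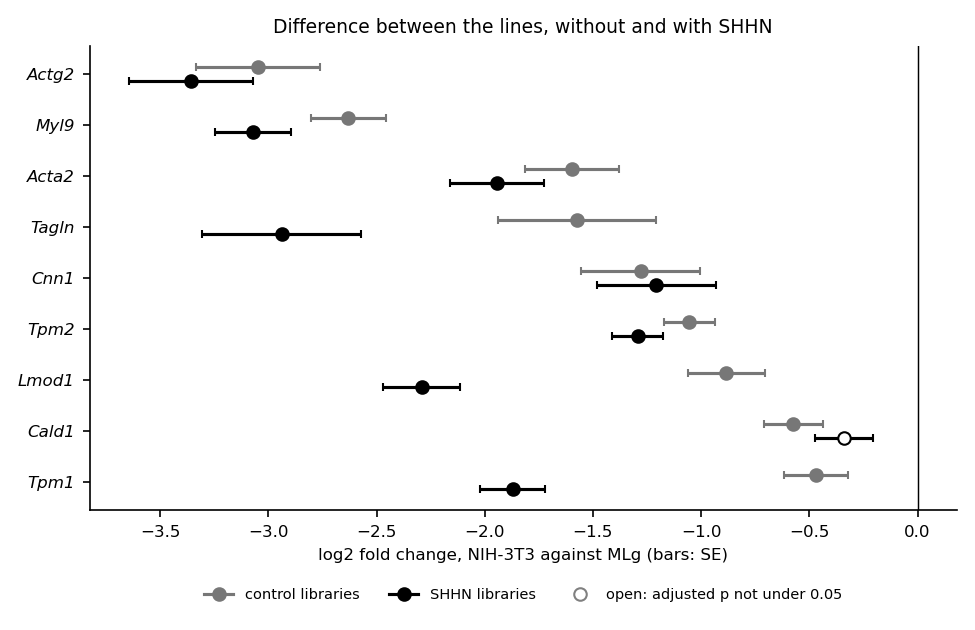
Log2 fold change of NIH-3T3 against MLg (x axis) for the 9 tested genes (y axis) in control (grey) and SHHN (black) libraries, with SE. All points lie below 0, among them Cnn1, which passed the filter through MLg, and those of Tpm1, Lmod1 and Tagln move further left with SHHN.

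The summed level of the 10 members was 745 ± 5.65 FPKM (SD, n = 3) in NIH-3T3 control, 441 ± 14.1 FPKM in NIH-3T3 SHHN, 1480 ± 169 FPKM in MLg control and 1215 ± 61.3 FPKM in MLg SHHN. Summed FPKM of all genes also differed between libraries. As a share of it, the members made up 0.124 ± 0.0128%, 0.0848 ± 0.00457%, 0.286 ± 0.0220% and 0.243 ± 0.0120% in the same order of groups. Over the 12 libraries, log2 levels of the 9 tested members correlated in all 36 pairs (Pearson r from 0.62 for Tpm1 with Cald1 to 0.98 for Tpm1 with Lmod1, median 0.86). With group means removed the median r was 0.19, so most of this shared pattern lay between groups. These are descriptions, and the libraries share line and treatment.

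Genes outside the members with at least 5 FPKM on average were ranked by likeness to Acta2 and Tagln over the 12 libraries, among 8924 genes. Nearest to Acta2 were Dis3l (r = 0.98), Renbp (0.98), Mylk (0.98), Itga3 (0.97) and Cnn2 (0.97). Mylk is the kinase that phosphorylates the myosin light chain, and its mean was 1.58 FPKM in NIH-3T3 control, 0.737 in NIH-3T3 SHHN, 24.8 in MLg control and 22.5 in MLg SHHN. Nearest to Tagln were Tes (0.97), Anxa3 (0.97), Itga11 (0.97), Ccl2 (0.97) and the cytoplasmic actin Actb (0.96).

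SRF and its partners did not move as a block. Of 11 tested SRF regulators, 3 were higher and 2 lower in NIH-3T3 (all tested genes: 16.6% and 14.8%). In MLg 1 was higher and 4 lower (all tested genes: 12.8% and 10.0%). The count of higher genes in NIH-3T3 was 1 without NIH-3T3 SHHN replicate 2, and that in MLg 2 without MLg control replicate 2. Srf was 19.3, 21.4 and 18.1 FPKM in NIH-3T3 control and 31.3, 25.3 and 23.9 FPKM with SHHN, and it rose (log2 fold change 0.44, SE 0.15, adjusted p = 0.0358). The 3 higher genes in NIH-3T3 were Srf, Csrp1 and Klf4, of which at most 1 kept its call without NIH-3T3 SHHN replicate 2. In MLg the change of Srf was 0.01 (adjusted p = 0.978). Mkl1, which codes for the coactivator MRTF-A, was 30.9, 24.1 and 24.4 FPKM in NIH-3T3 control and 16.2, 16.6 and 13.5 FPKM with SHHN. Mkl1 fell by 0.75 in NIH-3T3 (SE 0.13, adjusted p = 4.14e-04) and by 0.47 in MLg (SE 0.13, adjusted p = 0.0141). Its difference between the lines did not pass (−0.28, adjusted p = 0.328). Mkl2, the gene of MRTF-B, passed in neither line (0.13 and 0.42). Myocd, the coactivator specific to muscle, was 0.0123 FPKM in 1 library and listed at 0 in the other 11.

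Other genes of this list moved in unlike directions. Csrp1, a LIM protein of smooth muscle, rose in NIH-3T3 (1.29, SE 0.14) and in MLg (1.21, SE 0.14), while its relative Csrp2 fell in both (−0.72 and −1.17, SE 0.14 each). Klf4, a factor known to repress smooth muscle genes, rose in NIH-3T3 (0.89, adjusted p = 0.0135). Its change in MLg was 0.56 and did not pass (adjusted p = 0.127), nor did the difference between the lines (0.33, adjusted p = 0.573). Gata6 fell in MLg from 19.9 to 9.41 FPKM (−1.08, adjusted p = 4.39e-04), and Elk3 fell there too (−0.41, adjusted p = 0.00781). In NIH-3T3 neither Gata6 (0.44, adjusted p = 0.0721) nor Elk3 (−0.26, adjusted p = 0.0627) passed. The difference between the lines passed for Gata6 (1.52, adjusted p = 0.00125) and not for Elk3 (0.15, adjusted p = 0.514). Of 11 genes that set myosin phosphorylation, 2 were lower in each line and 0 higher. Of all tested genes, 14.8% were lower in NIH-3T3 and 10.0% in MLg. Counts of 2 are near these shares and are not read as a result about the list. In NIH-3T3 the lower genes were Mylk (−0.78, adjusted p = 0.00275) and Rnd3 (−0.50), and in MLg Rnd3 (−0.81) and Ppp1r14a (−0.52). Ppp1r14a was 0.520 to 0.675 FPKM in MLg control, 0.167 to 0.408 FPKM in MLg SHHN and 0 in NIH-3T3. It passed the filter of 0.5 FPKM only through MLg control, where it is high, so its call lends no support to a fall. Counts of lower genes in this list were 1 to 4 in NIH-3T3 when single libraries were left out (4 without control replicate 2, 1 without control replicate 3 or SHHN replicate 1 or 2). In MLg the count was 1 when SHHN replicate 1 or 2, or any control replicate, was left out.

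The cytoplasmic counterparts of the members, found in most cells, split by gene. Of 13 tested, 3 were higher and 4 lower in NIH-3T3 (all tested genes: 16.6% and 14.8%). In MLg 3 were higher and 3 lower (all tested genes: 12.8% and 10.0%). Lower counts were 2 in NIH-3T3 without SHHN replicate 2, and 1 in MLg without SHHN replicate 1 or 3 or control replicate 2. The higher count in NIH-3T3 was 5 without SHHN replicate 3. In NIH-3T3, where Tagln fell, Tagln2 rose from 80.2, 80.4 and 77.8 FPKM in control to 346, 326 and 375 FPKM with SHHN (2.13, SE 0.10, adjusted p = 7.33e-09). It also rose by 0.78 in MLg, where Tagln did not pass. The Tagln2 rise was larger in NIH-3T3 (difference 1.35, adjusted p = 4.43e-05). Tpm4 was 184, 169 and 189 FPKM in NIH-3T3 control and 67.8, 38.9 and 45.1 FPKM with SHHN, a fall of 1.86 (SE 0.17, adjusted p = 1.67e-06). In MLg Tpm4 changed by −0.08 (adjusted p = 0.805), and the difference between the lines passed (−1.79, adjusted p = 3.18e-04), as that of Tpm1 did. Cnn3, a calponin outside muscle, fell by 0.85 in NIH-3T3 and 0.63 in MLg, and Tmod3, a cap of actin filaments, rose by 0.81 and 0.74. Actg1, a cytoplasmic actin, rose in MLg (0.52, adjusted p = 0.02).

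Of 20 further tested genes of the smooth muscle cytoskeleton and membrane, 8 were lower and 1 higher in NIH-3T3 (2 higher without SHHN replicate 1). In MLg 6 were lower and 3 higher. Of all tested genes, 14.8% were lower and 16.6% higher in NIH-3T3, and 10.0% and 12.8% in MLg. The medians of the 20 genes were −0.39 in NIH-3T3 and −0.22 in MLg. In NIH-3T3 the intermediate filament gene Synm fell by 1.76 (adjusted p = 7.64e-06), the caveolar gene Cav1 by 1.26 and Pgm5 by 1.94, while Tns1, a focal adhesion gene, rose by 1.49. In MLg, Jph2, which tethers the sarcoplasmic reticulum, fell from 23.9 ± 5.03 to 7.67 ± 1.52 FPKM (−1.57, adjusted p = 1.20e-05). The focal adhesion gene Zyx fell by 1.25 and Pgm5 by 1.29, while Sorbs2 rose by 1.14. Zyx also fell by 0.93 in NIH-3T3 (adjusted p = 1.71e-04), and its difference between the lines did not pass (0.31, adjusted p = 0.330). In NIH-3T3, Jph2 was at most 0.102 FPKM and Sorbs2 at most 0.0409 FPKM in any library. Fibroblast markers moved as well: 8 of 10 were lower and 1 higher in NIH-3T3 (all tested genes: 14.8% and 16.6%). In MLg 3 of 10 were lower and 0 higher (all tested genes: 10.0% and 12.8%). When single libraries were left out, 6 to 8 were lower in NIH-3T3 and 1 to 3 in MLg. The markers summed to 16710 to 17951 FPKM in NIH-3T3 control and 10905 to 12602 FPKM in NIH-3T3 SHHN. Their part in the fall of the contractile genes was not tested.

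**Figure D5:**
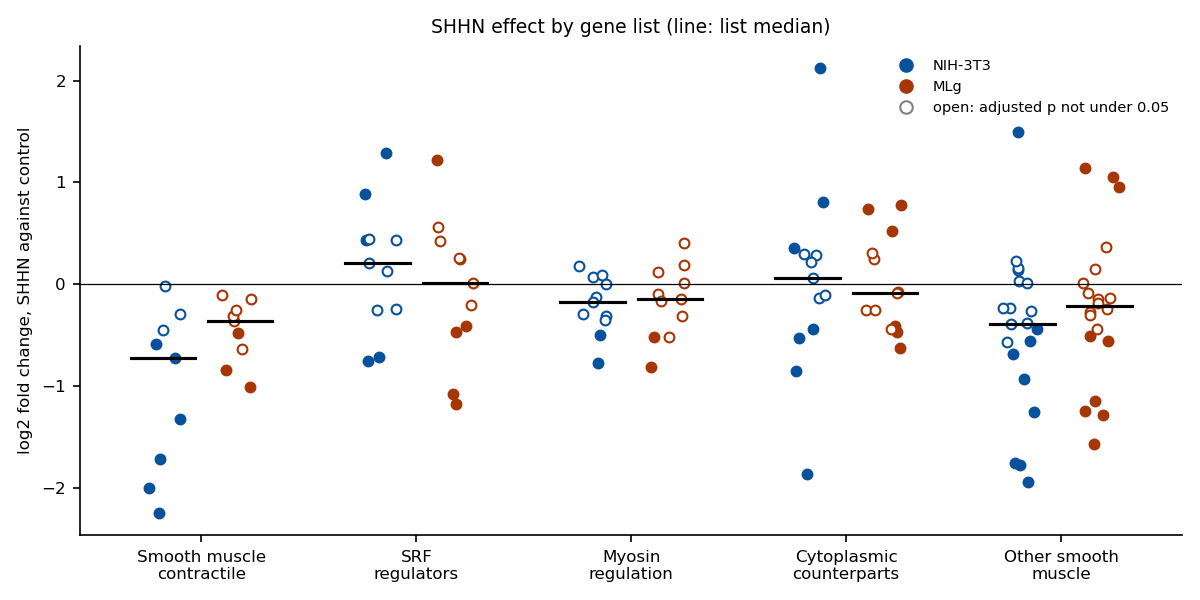
Log2 fold change of SHHN against control (y axis) for each tested gene of 5 lists (x axis) in NIH-3T3 (blue) and MLg (orange). Filled points passed an adjusted p of 0.05 and black lines are medians, which are −0.72 and −0.36 for the contractile genes.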

How the data were processed

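The authors deposited 1 FPKM value per gene and library for 12 libraries. Per the submitters' processing notes, bcl2fastq, TopHat2 2.0.12, Cufflinks 2.2.1 and mm10 were used. The annotation and any scaling between libraries are not given in the sources used here. Each column name gave its library's line, treatment and number, and 1 row without values was left out. Genes above 0 and below 0.1 FPKM in both NIH-3T3 SHHN replicate 1 and another library were compared by their ratio. The fullest bin of 1% in this ratio held 1.30% to 11.1% of them, by library. Reads were not recovered from these ratios, and depth is unknown.

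The 12379 of 24346 genes that reached 0.5 FPKM in 3 or more libraries were fitted as log2(FPKM + 0.5) in limma 3.58.1 (R 4.3.3), with 4 group means, a variance trend, two-sided tests and Benjamini-Hochberg adjustment over all tested genes, threshold 0.05. The fit was tested on simulated data. Of the 10 members 9 passed the filter; Myh11 did not. Gene positions are from GENCODE M21 (mm10) and promoters from RefSeq.

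The members and lists were chosen with earlier results of these data known. All members are named, and of each other list at most 4 called genes per line, by smallest p, and Srf, Mkl1, Mkl2 and Myocd always. Same-numbered MLg control and SHHN libraries, after removal of group means, correlated across genes at 0.13, 0.16 and 0.24, so the replicate block was read beside MLg results. It changed no MLg call of a member. As alternatives, the pseudocount was set to 0.1 or 1 and the filter to 1 FPKM or none; the others were quantile and median-ratio scaling, 6 libraries per fit, the block, robust variances and leaving out each library.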

Additional observations from a re-analysis of the deposited data

Results flagged for a closer look

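The response to SHHN differed between the lines for 2 members by the test of the difference itself (limma, NIH-3T3 minus MLg). The difference was −1.40 for Tpm1 (adjusted p = 7.41e-04) and −1.41 for Lmod1 (adjusted p = 0.00242). For both genes every treated NIH-3T3 library lay below every control library of that line.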

How the results depend on the processing

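Of 935 values of single members under alternatives, 902 kept their direction and their side of the threshold, 11 lost and 12 gained a call, and 10 changed sign. The sign changes were all in values that passed under none of the settings run. For Cald1 in NIH-3T3 the log2 change was 0.086 with quantile normalization and −0.13 to 0.058 without single libraries. The difference between lines was −0.091 for Cnn1 with a pseudocount of 0.1, and without single libraries −0.20 to 0.45 for Cnn1 and −0.62 to 0.095 for Actg2. Leaving out single libraries gave 1 to 4 members lower in MLg (3 with all), 5 to 7 in NIH-3T3 (6 with all), 2 to 3 for the difference, and, with Cnn1 left out, 7 to 8 of 8 for the lines compared without SHHN (8 with all libraries) and 7 to 8 with SHHN (7 with all). With the replicate block, 7 members were lower in NIH-3T3, since Acta2 passed (adjusted p = 0.0405), and 3 in MLg. In NIH-3T3 the numbers did not pair the samples (correlations −0.0007, −0.10 and 0.03). Scaling moved the median of all genes by at most 0.04. Counts of the other lists without single libraries were added after the data were seen. The cause of these changes was not tested.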

Other observations

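A pair of further smooth muscle genes was chosen after their values were seen. Smtn, smoothelin, a marker of contractile smooth muscle, was 30.5, 30.3 and 26.2 FPKM in MLg control and 60.0, 55.2 and 55.2 FPKM with SHHN, so it rose (log2 fold change 0.96, adjusted p = 0.00255) where Lmod1, Tpm2 and Actg2 fell. In NIH-3T3 it was 52.1 to 75.6 FPKM in control and 54.1 to 102 FPKM with SHHN and did not pass (0.13, adjusted p = 0.651), and the difference between the lines did not pass either (−0.82, adjusted p = 0.0679). Aoc3, an amine oxidase of the vascular wall, went opposite ways. It was 15.9, 11.96 and 14.2 FPKM in NIH-3T3 control and 2.13, 4.89 and 4.82 FPKM with SHHN, and 0.349, 0.616 and 0.457 FPKM in MLg control and 1.76, 1.48 and 1.32 FPKM with SHHN. The difference between the lines was −2.83 (SE 0.34, adjusted p = 1.33e-04).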
